A study of Mus musculus with 9 samples.

Results

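The TAM receptors are 3 related receptor tyrosine kinases, encoded by Tyro3, Axl and Mertk, and their soluble ligands are encoded by Gas6 and Pros1. All 5 genes were found by symbol among the 45664 rows of the deposited count table, and all 5 were among the 13067 genes with enough counts to be tested. The table covers microglia, the resident macrophages of the brain, taken by flow sorting from visual cortex, with 1 library per mouse. All mice were adolescent C57BL/6 males, and the labels name no genetic change. Ethanol mice (n = 4) received 1.8 g per kg of ethanol, as a 20% solution in saline, under the skin of the back. They were injected 2 times a day, 2 h apart, from postnatal day 4 to day 9, a daily dose of 3.6 g per kg, and were 35, 35, 30 and 30 days old at collection (ethanol 1 to 4). Saline mice (n = 5) received an equal volume of saline on the same days and were 36, 30, 35, 29 and 30 days old (saline 1 to 5). The mice came from 3 litters, and which mouse came from which litter is not stated in the labels used here. The gate took live CD11b+ cells with low CD45, which does not by itself separate microglia from every other myeloid cell.

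The ligands Gas6 and Pros1 (protein S, also an anticoagulant of the blood) bind phosphatidylserine on dying cells and cell fragments with one end and a TAM receptor with the other, and so link a phagocyte to what it engulfs. Binding to the membrane needs a vitamin K-dependent modification of the ligand, gamma-carboxylation. Gas6 activates all TAM receptors, whereas Pros1 acts on Tyro3 and Mertk and is not an effective ligand of Axl. Active TAM receptors also dampen Toll-like receptor and cytokine signalling. In the mouse brain, Mertk is known from resting microglia and also from astrocytes, Axl from microglia in inflammation and disease, and Tyro3 mainly from neurons.

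The libraries held 12816198 to 28859244 counts. The sum of 8 microglial marker genes was 54773 to 64925 CPM (read counts set to the same library total) in ethanol libraries and 54732 to 62413 CPM in saline libraries, led by Csf1r, the receptor on which microglia depend, at 18077 to 20086 and 18877 to 20844 CPM. Marker sums of other cell types were far lower in ethanol and saline libraries, at 325 to 451 and 271 to 470 CPM for 10 astrocyte genes (led by Slc1a3), 232 to 268 and 199 to 263 CPM for 10 oligodendrocyte lineage genes (Cnp), and 59.8 to 81.3 and 69.7 to 89.7 CPM for 10 endothelial and pericyte genes (Pecam1). They were 39.3 to 92.0 and 48.4 to 82.0 CPM for 7 border macrophage genes (Mrc1), 21.0 to 58.0 and 2.19 to 38.6 CPM for 9 neuronal genes (Map2), 4.84 to 16.0 and 4.69 to 8.40 CPM for 8 monocyte and neutrophil genes (Ccr2), and 0.0415 to 0.287 and 0.0553 to 0.336 CPM for 8 lymphocyte genes (Cd79a). The neutrophil genes S100a8 and S100a9 and the lymphocyte genes Cd3e, Nkg7 and Cd2 had no count in any library. As the RNA is bulk RNA of sorted cells, fewer cells of a type and less RNA per cell cannot be told apart. Saline 1 had the lowest neuronal sum, and ethanol 2 stood apart from the other 8 libraries in several of the pathway genes below, such as Lrp1, Abca1 and Rxra. Over all tested genes, ethanol 2 also differed most from the other libraries of its group. Values without ethanol 2, or without both saline 1 and ethanol 2, are given beside the results they move most.

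The 3 receptor genes differed so widely in level that the 250 bases before the transcription start of each are shown, from RefSeq (GRCm38.p6). Mertk lies at chr2:128698956-128802894 on the plus strand, Axl at chr7:25757273-25788705 on the minus strand and Tyro3 at chr2:119797733-119818104 on the plus strand (GENCODE M21, GRCm38). The windows are chr2:128698665-128698914, chr7:25788734-25788983 and chr2:119799264-119799513, written 5′ to 3′ on the gene's strand. The RefSeq start of Tyro3 lies inside the span that GENCODE gives the gene. Capitals mark GAGGAA, the core bound by the myeloid factor PU.1, searched on both strands.
Mertk: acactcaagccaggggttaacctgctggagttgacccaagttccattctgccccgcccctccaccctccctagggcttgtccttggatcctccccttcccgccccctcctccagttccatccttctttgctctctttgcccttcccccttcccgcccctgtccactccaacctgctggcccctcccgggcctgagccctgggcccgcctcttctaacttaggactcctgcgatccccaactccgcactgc
Axl: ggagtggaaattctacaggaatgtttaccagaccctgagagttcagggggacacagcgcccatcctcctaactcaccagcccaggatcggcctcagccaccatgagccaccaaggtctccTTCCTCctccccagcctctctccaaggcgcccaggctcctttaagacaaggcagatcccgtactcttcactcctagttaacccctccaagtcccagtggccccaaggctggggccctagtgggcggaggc
Tyro3: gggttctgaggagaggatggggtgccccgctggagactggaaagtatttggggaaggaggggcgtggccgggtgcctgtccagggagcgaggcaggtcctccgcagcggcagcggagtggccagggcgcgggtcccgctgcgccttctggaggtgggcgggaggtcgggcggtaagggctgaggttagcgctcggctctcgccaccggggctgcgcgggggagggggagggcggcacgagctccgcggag
The Axl window held 1 match, on the opposite strand, and the Mertk and Tyro3 windows held none, as did those of Gas6 and Pros1. The core was present in 7638 of 32841 promoter windows of the same length (23.3%). The direct repeat with a spacer of 4 bases (DR4) that liver X receptors bind was searched on both strands, as exact copies of AGGTCA only. It was in none of the 5 windows and in 5 of the 32841. A repeat this rare would be missing from nearly any 5 windows, so its absence does not set these genes apart. The share of G and C was 63.6% for Mertk, 60.0% for Axl and 73.2% for Tyro3, against a median of 52.4% over all windows, and the number of CG dinucleotides was 7, 5 and 24. A match or its absence describes these letters only.

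Mertk, which drives the engulfment of dying cells by macrophages, was the TAM receptor that these microglia expressed at a high level. Its libraries held 15839 to 34676 counts. It stood at 1258, 1177, 1277 and 1200 CPM in ethanol 1 to 4, against 1230, 1196, 1281, 1247 and 1213 CPM in saline 1 to 5. The groups overlapped throughout, and the lowest and the highest library differed little. Divided by the length of its exons, Mertk averaged 283 ± 10.8 CPM per kb in ethanol mice (SD, n = 4) and 284 ± 7.54 CPM per kb in saline mice (SD, n = 5), which placed it 84th among the 12411 tested genes with a known length.

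Axl, the receptor that serves macrophages in inflammation, was a mid-level transcript. It had 21.8, 21.6, 23.9 and 18.3 CPM in ethanol 1 to 4, against 23.4, 22.2, 23.7, 26.9 and 35.4 CPM in saline 1 to 5. In Axl 3 of the 4 ethanol libraries lay below every saline library, ethanol 3 lay among them, and saline 5 stood highest. Per exon length Axl averaged 4.25 ± 0.457 CPM per kb in ethanol mice (SD, n = 4) and 5.23 ± 1.07 CPM per kb in saline mice (SD, n = 5), above 47.6% of the genes with a length. Within a library the Axl level per kb was 1.50, 1.58, 1.61 and 1.32% of the Mertk level in ethanol 1 to 4, and 1.64, 1.60, 1.59, 1.86 and 2.51% in saline 1 to 5.

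Tyro3, the receptor typical of neurons, was close to the limit of detection. Ethanol 1 to 4 held 2, 14, 2 and 17 counts, and saline 1 to 5 held 1, 43, 25, 0 and 20 counts. As levels these were 0.159, 0.580, 0.115 and 0.840 CPM in ethanol 1 to 4, against 0.0561, 1.48, 1.23, 0 and 0.948 CPM in saline 1 to 5. In both groups some libraries had next to no count and others a clear one. The 95% Poisson interval reached up to 0.204 CPM for the count of 0 in saline 4, where 3 counts correspond to 0.166 CPM, and was 1.07 to 2.00 CPM in saline 2. These intervals cover counting error only. Tyro3 was the lowest of the 5 genes, above 1.47% of the genes with a length.

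Tyro3 was set beside the neuronal transcripts, since neurons are its best known source. The sum of the 9 neuronal markers was 21.0, 21.7, 29.7 and 58.0 CPM in ethanol 1 to 4 and 2.19, 33.2, 29.7, 21.6 and 38.6 CPM in saline 1 to 5. Saline 1, with the least neuronal RNA, had 1 Tyro3 count, and the 4 libraries with the highest Tyro3 level included the 3 with the most neuronal RNA. Ethanol 3 and saline 3, with the same neuronal sum, had Tyro3 at 0.115 and 1.23 CPM, and their Poisson intervals of 0.0139 to 0.414 and 0.794 to 1.81 CPM did not overlap. The 4 libraries with 0 to 2 counts came from 9934 and 9291 sorted cells (ethanol 1 and 3) and from 8923 and 14602 cells (saline 1 and 4), and the others from 11603 to 19071 cells. The part of neuronal RNA and of cell number in the Tyro3 level was not tested.

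**Figure D1:**
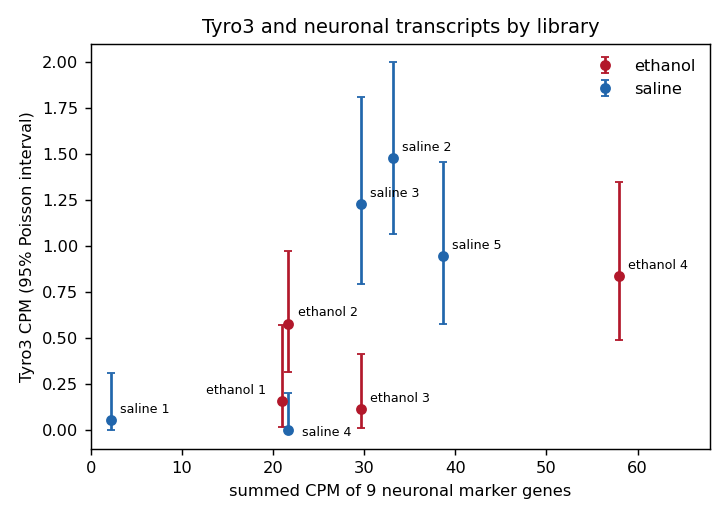
Tyro3 level (CPM, with 95% Poisson intervals) against the summed CPM of 9 neuronal marker genes, 1 point per library, ethanol in red and saline in blue. Saline 1 lies lowest on the neuronal axis at 2.19 CPM, and ethanol 3 and saline 3, both at 29.7 CPM on that axis, lie apart in Tyro3.

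Both ligands were expressed at high levels by the sorted cells themselves. Pros1 (chr16:62854307-62929346, plus strand) stood at 1033, 1052, 1037 and 933 CPM in ethanol 1 to 4, against 1036, 966, 920, 900 and 911 CPM in saline 1 to 5. Ethanol 4 was low for its group and saline 1 high for its group, and the groups overlapped. Per exon length this was 248 ± 13.3 CPM per kb in ethanol mice (SD, n = 4) and 232 ± 13.6 CPM per kb in saline mice (SD, n = 5), rank 104 of 12411.

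Gas6 (chr8:13465374-13494490, minus strand) stood at 340, 424, 388 and 354 CPM in ethanol 1 to 4, against 335, 340, 288, 326 and 308 CPM in saline 1 to 5. In Gas6 3 of the 4 ethanol libraries lay above every saline library, and ethanol 1 and saline 2 were level. Per exon length Gas6 averaged 148 ± 14.8 CPM per kb in ethanol mice (SD, n = 4) and 125 ± 8.34 CPM per kb in saline mice (SD, n = 5), rank 213 of 12411. The Gas6 level per kb was 59.6 ± 5.01% of the Pros1 level in ethanol mice (SD, n = 4) and 54.2 ± 3.24% in saline mice (SD, n = 5). Gas6 shares 34 exon bases with Tmem255b on the other strand, which had 0 counts in all libraries together.

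**Figure D2:**
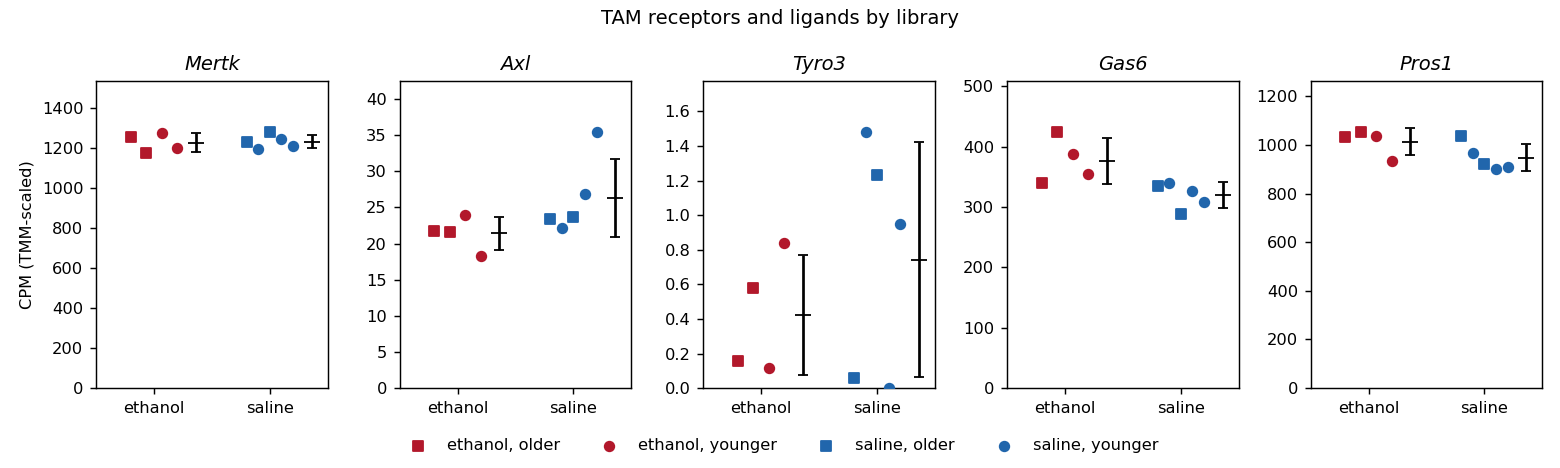
CPM of each gene in every library, with the ethanol group left of the saline group, squares for mice of postnatal day 35 or 36 and circles for mice of day 29 or 30, and the mean ± SD of each group in black. Mertk and Pros1 vary little, Gas6 lies between 340 and 424 CPM in ethanol and 288 and 340 CPM in saline libraries, and Tyro3 is below 1.5 CPM everywhere.

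Per exon length the order of the 5 genes was Mertk, Pros1, Gas6, Axl and Tyro3 in each of the 9 libraries. No neighbours in this order overlapped in their ranges, but the first step was small, with Mertk between 1.06 and 1.31 times Pros1. It also turned round with the length of the longest transcript in place of all exons, where Mertk averaged 286 and Pros1 296 CPM per kb over the 9 libraries. Pros1 stood at 1.54 to 1.99 times Gas6 and Gas6 at 17.2 to 38.9 times Axl. Mertk and both ligands were above at least 98.3% of the genes per length, and Axl and Tyro3 above at most 47.6%.

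**Figure D3:**
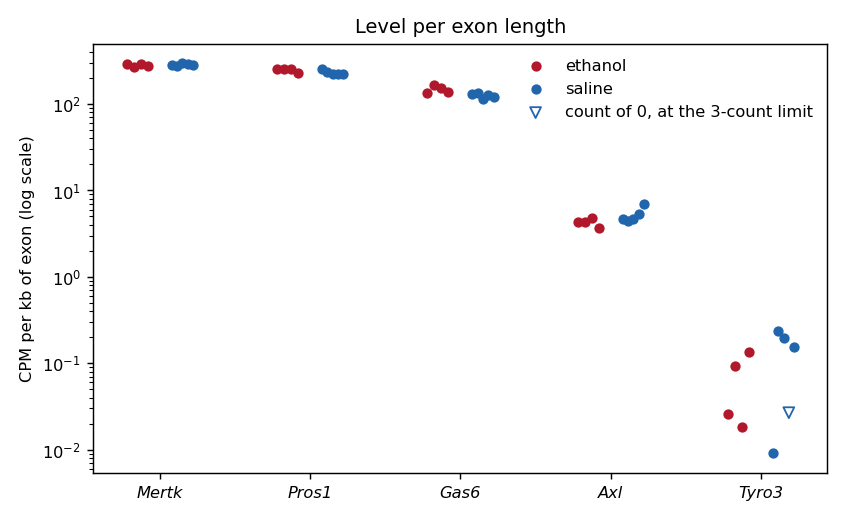
CPM per kb of exon on a log axis, 1 point per library, ethanol in red left of saline in blue, with the open triangle at the 3-count limit for the Tyro3 count of 0. The 5 genes fall from 284 CPM per kb for Mertk to 0.0970 CPM per kb for Tyro3, as means of the 9 libraries.

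The genes also differed in how steady they were between mice. Within groups, log2 CPM of Mertk had an SD of 0.0462, and 1.30% of the 154 genes within 2-fold of its level had a smaller one. The SD was 0.0815 for Pros1 (12.8% of 211 genes were smaller), 0.119 for Gas6 (36.8% of 863), 0.229 for Axl (65.9% of 3978) and 1.58 for Tyro3 (98.2% of 1625). As Tyro3 rests on 0 to 43 counts, counting error is part of its spread.

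Ethanol against saline was the comparison the series was made for. None of the 5 TAM genes passed edgeR's quasi-likelihood test with Benjamini-Hochberg adjustment over 13067 genes, nor did any gene (0%). DESeq2 and limma-voom also called 0 of the 5. Without adjustment, 1 of the 5 genes, Gas6, had a p under 0.05 in all 3 tools, where 2.95% of all genes did by edgeR, 1.42% with a higher and 1.54% with a lower level in ethanol mice. None of the 5 had groups that did not overlap, which 1.29% of all genes had.

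Gas6 was higher in ethanol mice by a log2 fold change of 0.24 ± 0.08 (SE; 95% interval 0.05 to 0.42), or 1.18-fold (edgeR adjusted p = 0.963, unadjusted p = 0.0165). All 4 ethanol libraries were above the saline mean. Of the 863 genes within 2-fold of its level, 92.7% had a smaller fold change in size. The log2 fold change was 0.17 without ethanol 2, where Gas6 was highest, and 0.19 without both saline 1 and ethanol 2, with an unadjusted p by edgeR's test across all genes of 0.0415 and 0.0300 and an adjusted p of 1 in both. Unadjusted p by edgeR's test was 0.0103 to 0.0440 with each library left out and 0.0748 when replicate number was fitted as a block. By age it was 0.173 in the older and 0.0683 in the younger mice (log2 fold change 0.29 ± 0.19 and 0.19 ± 0.09, SE). With the RNA integrity number, a score of RNA quality, as a covariate it was 0.00682 (adjusted p = 0.945). The log2 fold change was then 0.23 ± 0.07 (SE). Ethanol 2 and 3 scored 9.2 and 9.1, against 9.9 in ethanol 1 and 4. Saline 1 and 2 scored 9.2 and 9, against 9.8 or 9.9 in saline 3 to 5. Within each group Gas6 and Pros1 were both highest in the lower-scoring libraries. The part of RNA quality in these levels was not tested.

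Pros1, the other ligand, had a log2 fold change of 0.10 ± 0.07 (SE; 95% interval -0.05 to 0.25; edgeR adjusted p = 0.963), and 3 of the 4 ethanol libraries were above the saline mean. Mertk had one of -0.01 ± 0.06 (-0.13 to 0.12; edgeR adjusted p = 0.992), with 2 of 4 ethanol libraries above the saline mean. The interval of Mertk corresponds to 0.911 to 1.09-fold and that of Pros1 to 0.965 to 1.19-fold.

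Axl had a log2 fold change of -0.30 ± 0.15 (SE; 95% interval -0.62 to 0.02), or 0.813-fold (edgeR adjusted p = 0.963, unadjusted p = 0.0650), and all 4 ethanol libraries were below the saline mean. With each library left out it lay between -0.36 and -0.17 (unadjusted p 0.0405 to 0.176 by edgeR's test across all genes), closest to 0 without saline 5 and under an unadjusted p of 0.05 without saline 2. Unadjusted p was also 0.0460 with no filter on low counts and 0.0350 with the number of sorted cells as a covariate, and no adjusted p passed. It was -0.12 ± 0.18 (SE) in the older and -0.42 ± 0.20 (SE) in the younger mice. Border macrophages can also express Axl, and their marker sum was 40.2, 39.3, 92.0 and 41.0 CPM in ethanol 1 to 4 and 67.7, 66.3, 48.4, 82.0 and 69.9 CPM in saline 1 to 5. A covariate chosen after the data were seen was the mean log2 CPM of 4 of these 7 markers, those with enough counts to be tested. With it, Axl had a log2 fold change of -0.14 ± 0.21 (SE; edgeR adjusted p = 0.881). Gas6 had one of 0.36 ± 0.11 (SE; edgeR adjusted p = 0.805, unadjusted p = 0.00872). The part of border macrophage RNA in the Axl level was not tested.

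Tyro3 had a log2 fold change of -0.78 ± 0.95 (SE; 95% interval -2.88 to 1.33; edgeR adjusted p = 0.963). That interval reaches from 0.135-fold to 2.51-fold, and on the log2 scale it is 4.21 wide, against a median of 2.27 for the 1625 genes within 2-fold of its level. A difference of several fold was not detectable with this depth and this spread between mice. The value ranged from -1.31 without ethanol 4 to -0.36 without saline 2, and was -0.32 with the replicate number as a block and -2.16 ± 1.23 (SE) with border macrophage markers as a covariate.

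**Figure D4:**
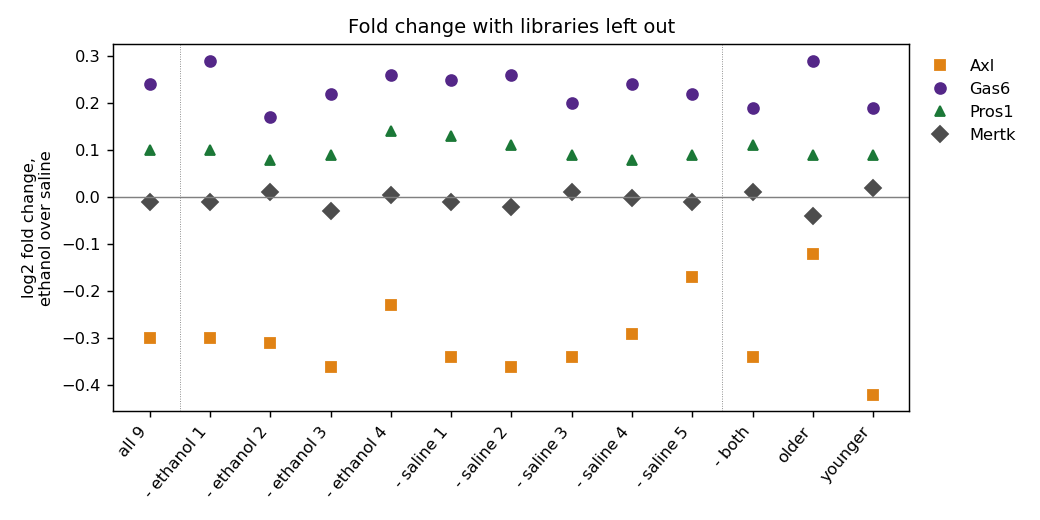
Log2 fold change of ethanol over saline for 4 genes with all 9 libraries, with each library left out, without saline 1 and ethanol 2 (marked both), and within each age cohort. Gas6 lies between 0.17 and 0.29, Pros1 between 0.08 and 0.14, Mertk near 0, and Axl comes closest to 0 in the older mice (-0.12) and without saline 5 (-0.17).

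Age was the other labelled difference between the mice, with 4 older mice (postnatal day 35 or 36) and 5 younger mice (day 29 or 30). As the litter of each mouse is not stated, age and litter cannot be told apart. With ethanol as a covariate, 0 of the 5 genes passed edgeR's test, as did 0% of all genes, and 0 of the 5 had an unadjusted p under 0.05 by edgeR, DESeq2 or limma-voom, where 2.85% of all genes did by edgeR. The log2 fold change of older over younger mice was 0.01 ± 0.06 (SE) for Mertk, -0.12 ± 0.15 for Axl, -0.32 ± 1.00 for Tyro3, -0.01 ± 0.09 for Gas6 and 0.08 ± 0.07 for Pros1. Axl ranged over 21.6 to 23.7 CPM in the older and 18.3 to 35.4 CPM in the younger mice. In a fit with both terms, the interaction of ethanol with age had a log2 fold change of 0.30 ± 0.30 (SE) for Axl and 0.10 ± 0.19 (SE) for Gas6 (edgeR adjusted p = 0.972 and 0.973). No gene passed that test (0% adjusted, 3.24% unadjusted), and by the 3 tools 0 of the 5 did with or without adjustment.

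The remaining genes of the pathway were read from 6 lists with 59 genes, of which 50 were tested. None of the 50 passed for ethanol by edgeR, DESeq2 or limma-voom. Without adjustment, 2 had a p under 0.05 by edgeR, both lower in ethanol mice, against 2.95% of all genes. These were Cd300lf and Socs3, the same 2 as by DESeq2, whereas limma-voom gave Itgb3 and Socs3. Their median log2 fold change was -0.04, with 18 above and 32 below 0, beside a median of -0.000678 over all genes, of which 49.8% were above 0. This split changed with the libraries and the model. It was 23 above and 27 below 0 without ethanol 2 (median -0.00322) and 21 above and 29 below without saline 1 (median -0.04). Without both it was 31 above and 19 below (median 0.02). It was wider with the number of sorted cells as a covariate, at 15 above and 35 below (median -0.06). In the older mice alone it was 16 above and 33 below (median -0.09). With limma-voom 27 were above and 23 below 0, with a median of 0.01. For age 0 of the 50 passed, with a median of -0.01 beside -0.02 over all genes, and 0 had an unadjusted p under 0.05 by edgeR or limma-voom and 1 by DESeq2.

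Other receptors and bridges for dying cells had a median log2 fold change of -0.11, and of 11 tested genes 3 were above and 8 below 0. The median was -0.0036 without ethanol 2, 0.02 without saline 1 and ethanol 2, -0.45 in the older mice (10 genes fitted) and 0.01 in the younger mice. Itgb5, part of the integrin that takes up cells coated with the bridging protein Mfge8, averaged 3400 ± 249 CPM in ethanol mice (SD, n = 4) and 3388 ± 233 CPM in saline mice (SD, n = 5). Lrp1, a large endocytic receptor, averaged 1103 ± 416 CPM in ethanol mice (SD, n = 4) and 1118 ± 186 CPM in saline mice (SD, n = 5), and its log2 fold change of -0.02 ± 0.25 (SE) was 0.21 without ethanol 2, which stood at 534 CPM. Cd300lf, a phosphatidylserine receptor, averaged 2.33 ± 0.723 and 4.68 ± 2.38 CPM in ethanol and saline mice, a log2 fold change of -0.99 ± 0.41 (SE; edgeR adjusted p = 0.963, unadjusted p = 0.0332). Timd4, Havcr1, Stab2 and Megf10, further genes of this kind, had too few counts to be tested.

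The engulfment machinery had 10 of 13 tested genes above and 3 below 0, with a median of 0.04. With each library left out the median was 0.03 to 0.07. The split then ran from 8 above and 5 below (without ethanol 1 or ethanol 3) to 11 above and 2 below (without ethanol 2). Cdc42, a GTPase of actin remodelling, averaged 956 ± 101 CPM in ethanol mice (SD, n = 4) and 890 ± 39.1 CPM in saline mice (SD, n = 5), and its log2 fold change of 0.10 ± 0.08 (SE) was 0.04 without ethanol 2. Crk, an adaptor that passes the engulfment signal to Rac, had a log2 fold change of 0.14 ± 0.08 (SE). The cholesterol exporter gene Abca1, which macrophages induce after taking up dying cells, had one of -0.28 ± 0.20 (SE), with ethanol 2 at 488 CPM and the other libraries at 841 to 1167 CPM, and was -0.09 without ethanol 2.

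Genes of TAM signalling and its brake on cytokines had 2 of 13 tested genes above and 11 below 0, with a median of -0.06. With each library left out the median ranged from -0.13 (without saline 2) to -0.03 (without ethanol 2). The split then ran from 2 above and 11 below to 4 above and 9 below. The latter was found without saline 3, saline 4 or ethanol 2, and also with limma-voom. The split was 5 above and 8 below without both saline 1 and ethanol 2. Socs3, an inhibitor of cytokine receptors that TAM signalling induces, averaged 22.5 ± 3.59 CPM in ethanol mice (SD, n = 4) and 30.6 ± 4.37 CPM in saline mice (SD, n = 5). Its log2 fold change was -0.44 ± 0.14 (SE; edgeR unadjusted p = 0.00705, adjusted p = 0.963), and ethanol 2 was lowest at 19.7 CPM. Jak1, a kinase of cytokine receptors, had 417 to 480 CPM in ethanol and 488 to 535 CPM in saline libraries, a log2 fold change of -0.12 ± 0.07 (SE; edgeR adjusted p = 0.963). It was the 1 gene of the 50 with every ethanol library below every saline library, which 0.628% of all genes had. None of the 50 had every ethanol library above every saline library, which 0.658% of all genes had. Plcg2, a phospholipase, had a log2 fold change of -0.05 ± 0.08 (SE), and of -0.00469 without ethanol 2.

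Nuclear receptors that raise Mertk and Axl in macrophages had 0 of 5 tested genes above and 5 below 0, with a median of -0.17. The median was -0.09 without ethanol 2 and -0.07 without saline 1 and ethanol 2. With each library left out the split stayed at 0 above and 5 below. It was 1 above and 4 below without both saline 1 and ethanol 2, and in the younger mice alone. Rxra, the partner of liver X receptors, was at 37.2 CPM in ethanol 2 and 90.9 to 127 CPM in the other libraries, and its log2 fold change of -0.34 ± 0.26 (SE) was -0.09 without ethanol 2. Rxrb and the liver X receptor gene Nr1h2 had log2 fold changes of -0.03 ± 0.07 and -0.11 ± 0.07 (SE).

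The proteases that cut Mertk and Axl from the cell surface, Adam10 and Adam17, averaged 699 ± 44.0 and 533 ± 29.3 CPM in ethanol mice (SD, n = 4), against 717 ± 29.4 and 542 ± 42.3 CPM in saline mice (SD, n = 5). Their inhibitor gene Timp3 was at 1.37 to 2.62 CPM in ethanol and 0 to 2.37 CPM in saline libraries. The median of the 4 shedding genes was -0.02, and -0.05 to 0.04 with each library left out (lowest without saline 3, highest without saline 5). The median of the 4 genes for gamma-carboxylation was -0.08, but 0.02 without ethanol 2, 0.08 in the older and 0.04 in the younger mice, so no direction is given for either list. Of these, the carboxylase gene Ggcx averaged 64.2 ± 6.95 CPM in ethanol mice (SD, n = 4) and 57.2 ± 6.89 CPM in saline mice (SD, n = 5). Vkorc1l1, which recycles vitamin K, averaged 27.4 ± 7.75 and 31.7 ± 5.11 CPM in the same groups, and its log2 fold change of -0.21 ± 0.20 (SE) was -0.03 without ethanol 2. Aifm2, another vitamin K reductase, averaged 0.566 ± 0.167 CPM in ethanol mice and 1.15 ± 0.842 CPM in saline mice. None of the genes of the last 3 lists had an unadjusted p under 0.05 by edgeR.

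**Figure D5:**
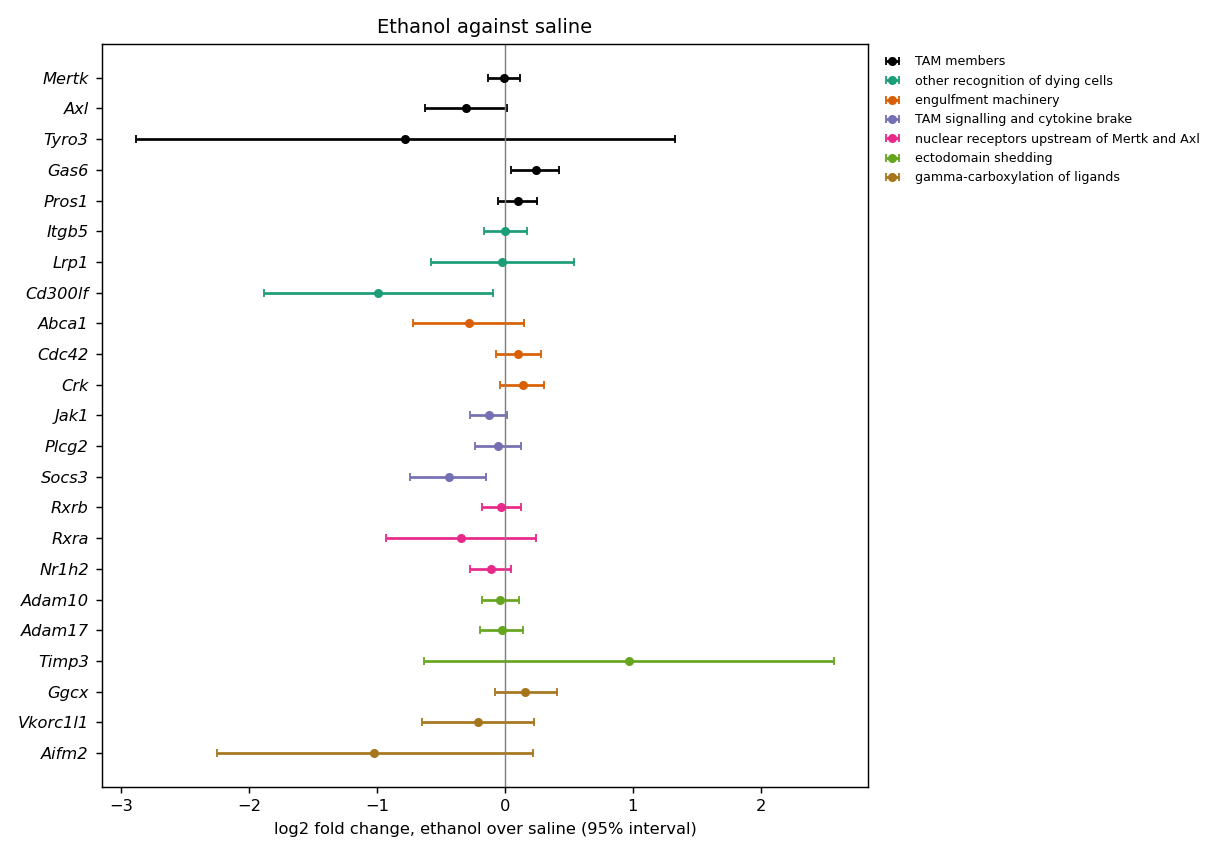
Log2 fold change of ethanol over saline with its 95% interval for the 5 TAM genes (black) and 18 named genes of the pathway lists (colours). Just 3 intervals, those of Gas6, Cd300lf and Socs3, leave out 0 before adjustment for multiple tests, and the widest belong to Tyro3 and other genes of few counts.

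The genes most like each TAM gene over the 9 libraries were listed by Pearson's r of log2 CPM, among 8245 or 8246 genes with a mean of at least 10 CPM, as a description. Mertk was most like Jade3 (r = 0.93), Dcaf5 (0.93) and Fem1a (0.92), and Axl most like Jak1 (0.90), Fubp3 (0.89) and Fads1 (0.86). Tyro3 was most like Bbs4 (0.92), Snapc3 (0.90) and Armc10 (0.89). Gas6 was most like Tubb2a (0.94), Nubp2 (0.93) and Aste1 (0.93), and Pros1 most like Rap1a, Retsat and Basp1 (0.95 each). By ranks, Spearman's rho was 0.53 for Axl with Fads1 and 0.63 for Tyro3 with Snapc3, and 0.82 to 0.95 for the other pairs. Without saline 1 and ethanol 2, r lay between 0.87 and 0.93 for these 15 pairs. Each is among the highest of 8245 or 8246 values over 9 libraries that share their scaling, so they name neighbours in pattern only.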

How the data were processed

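RNA of sorted visual cortex microglia from 9 mice was sequenced. The table that the authors deposited holds unnormalized read counts for 45664 gene symbols. GRCm38.p4, STAR 2.4.2a, HTSeq 0.6.1 and Trimmomatic 0.32 are listed in the submitters' processing notes. The annotation release and the use of strand in counting are not stated there. Samples were grouped by their titles. Genes were kept by filterByExpr (minimum count 10, minimum total 15), scaled by TMM, and tested with edgeR's quasi-likelihood F test (edgeR 4.0.16, R 4.3.3) on all 13067 genes, with Benjamini-Hochberg adjustment over all of them and a threshold of 0.05. SE and 95% intervals of fold changes were derived from the F statistics. CPM are TMM-scaled. Lengths, for 12411 of the tested genes (95.0%), and coordinates are from GENCODE M21. Each mouse gave 1 library, so p-values measure the spread between mice together with that of sorting and library preparation. Litter was in no model, so mice of the same litter were treated as independent. The procedure was tested on simulated data. The members and lists were chosen with earlier results of these data known. Named genes are the members, the 2 highest genes and the gene with the smallest p of each list, and the 3 genes with the highest r for each member. Alternatives were DESeq2 1.42.0, limma-voom (limma 3.58.1), RLE factors, other filters (none, or CPM of at least 5 in 4 libraries), libraries left out, covariates, a block for the replicate number and each age cohort alone. The covariates of sorted cells and of border macrophage markers were added after the data were seen. No 2 libraries of a group were alike within sampling noise (chi-square per degree of freedom at least 8.30). It was 61.3 to 84.1 for the pairs with ethanol 2, against 8.30 to 28.2 for the other pairs. The values of 1 lymphocyte marker are not reported here.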

Additional observations from a re-analysis of the deposited data

Results flagged for a closer look

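A single library stood apart from the rest of its group, by Dixon's criterion at 95%, in 4 of 46 groups of values of the TAM genes and the named pathway genes, where chance gives about 1 in 20. Pros1 was at 933 CPM in ethanol 4, against 1033 to 1052 CPM in the other ethanol libraries. Ggcx was at 74.5 CPM in ethanol 1, against 59.4 to 61.9 CPM in the other ethanol libraries. In saline 5, Jak1 was at 535 CPM, against 488 to 497 CPM in the other saline libraries, and Nr1h2 at 69.4 CPM, against 77.6 to 80.1 CPM.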

How the results depend on the processing

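For ethanol against saline, 0 genes passed in all 23 alternatives, and Axl, Tyro3, Gas6 and Pros1 kept the sign of their fold change in each that gave a value. Unadjusted p under 0.05 was found for 386 genes, 299 to 768 with a library left out (most without ethanol 4), 862 with no filter, where more genes are tested, 240 with the replicate number as a block, 204 in the older mice alone and 706 with border macrophage markers as a covariate. Same-numbered libraries did not deviate together (r -0.05 to -0.01; 0 of 8 libraries were most like their own number). No pairing by number was seen, but this cannot exclude one. For the age comparison that count was 372, and 214 to 653 with a library left out, 1336 with no filter, 235 with the stricter filter, 801 with the block and 710 without saline 1 and ethanol 2. For the interaction it was 423, and 268 to 2316, 1340 with no filter, and 268 with the stricter filter and with the block. Adjusted calls for age were 97 with no filter and 3 without saline 1 and ethanol 2. For the interaction they were 53 with no filter, 1 with DESeq2, and 0 to 848 with a library left out, the highest without ethanol 1, which leaves ethanol 2 as the only older ethanol mouse. The cause was not tested elsewhere.

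The log2 fold change for ethanol turned sign for Mertk with limma-voom (0.01), without saline 1 and ethanol 2 (0.01) and in the younger mice (0.02). Under the same 3 settings it was 0.16, 0.25 and 0.32 for Lrp1. With limma-voom and without both libraries it was 0.02 and 0.03 for Plcg2, 0.000594 and 0.01 for Adam10, and 0.01 and 0.02 for Adam17. It was 0.00268 for Vkorc1l1 without both libraries and 0.46 for Aifm2 in the older mice. Itgb5 had -0.02 with the block, -0.01 with age as a covariate, -0.03 in the older mice and -0.02 with sorted cells as a covariate. Adam17 had 0.00314 with the block, 0.01 with the name suffix as a covariate and 0.07 with border macrophage markers as a covariate, where Adam10 had 0.00191. With a library left out the range was -0.03 to 0.01 for Mertk, -0.02 to 0.06 for Itgb5, -0.18 to 0.21 for Lrp1 and -0.06 to 0.01 for Adam17. For age the block gave -0.01 for Mertk, 0.63 for Tyro3 and -0.02 for Pros1, and Gas6 had 0.02 with no ethanol term. A library left out gave -0.01 to 0.04 for Mertk, -1.25 to 0.15 for Tyro3 and -0.08 to 0.05 for Gas6. For the interaction the block gave 0.09 for Mertk, -4.76 for Tyro3, -0.10 for Gas6 and -0.06 for Pros1. Tyro3 had -0.01 with DESeq2. Pros1, at 0.00186, had -0.000933 with DESeq2, -0.000325 with limma-voom, -0.00103 with RLE factors and -0.00371 with the stricter filter. A library left out gave -1.23 to 3.47 for Tyro3, -0.07 to 0.29 for Gas6 and -0.08 to 0.09 for Pros1. Per kb, Pros1 was at 296 CPM by the longest transcript, against 239 CPM by all exons. Tyro3 gave no value under the stricter filter.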
